A study of Mus musculus with 8 samples.

Results

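The 9 genes described here carry out or steer the synthesis and breakdown of glycogen. They were taken by symbol: Ugp2, Gyg, Gys1, Gys2 and Gbe1 of synthesis, the phosphorylase genes Pygl, Pygb and Pygm, and the scaffold gene Ppp1r3c. All 9 were listed in all 8 libraries, among 18691 genes in all, and all 9 passed the filter on low counts that left 14257 genes to be tested. The libraries were made from polyadenylated RNA of whole epididymal white fat from C57BL/6J mice aged 16 weeks. They form 2 groups of 4 libraries: replicates 1, 2, 4 and 5 labelled Mrp4 KO (Mrp4-/-) and replicates 1 to 4 labelled wild type (WT). No treatment is named for either group. The labels give neither how the gene was altered nor whether the libraries stand for different animals, so the p-values measure the spread between libraries, which may be technical.

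Glycogen is a branched glucose store. Glucose taken up by the cell is phosphorylated by hexokinases, rearranged by phosphoglucomutase and joined to UDP by the product of Ugp2; glycogenin (Gyg) starts the chain, glycogen synthase (Gys1 in most tissues, Gys2 in liver and fat) lengthens it, and Gbe1 adds the branches. Phosphorylase removes the glucose units again and exists in forms named for liver (Pygl), brain (Pygb) and muscle (Pygm). Ppp1r3c, also called PTG, brings protein phosphatase 1 to glycogen, where it turns synthase on and phosphorylase off. Cyclic AMP acts the other way through protein kinase A and phosphorylase kinase. Mrp4, encoded by Abcc4, is an efflux transporter that exports cyclic AMP. White adipocytes hold little glycogen, and it turns over with feeding and fasting.

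Total expected counts were 14064681 to 14700114 per library. Abcc4, which encodes Mrp4, did not separate the groups. It was at 3.54, 3.68, 3.89 and 3.31 FPKM (fragments per kilobase of transcript, corrected for depth) in replicates 1, 2, 4 and 5 labelled Mrp4 KO, against 3.59, 3.33, 3.81 and 3.33 FPKM in WT replicates 1 to 4. The ranges overlapped (exact two-sided permutation p = 0.571; 4 against 4 libraries allow no p below 0.0286). The labels do not say how the gene was altered, so its transcript level can neither bear them out nor contradict them. Every direction below thus rests on the label. The 10 adipocyte genes summed to 22200 to 26600 FPKM in the libraries labelled Mrp4 KO, against 27400 to 31500 FPKM in WT. Of these, 3 were called lower (Plin1, Retn and Cfd) and 1 higher (Lep). Cfd averaged 3470 ± 1450 FPKM in the libraries labelled Mrp4 KO and 9810 ± 2510 FPKM in WT (SD). The lower sums rest largely on this gene. Adipoq, Cidec, Lipe, Fabp4, Pparg and Slc2a4 did not pass. Other cell type lists also differed. The 10 hepatocyte genes, all called higher, summed to 713 to 1350 FPKM in the libraries labelled Mrp4 KO, against 37.9 to 93.3 FPKM in WT, and the 8 listed macrophage genes, 6 of them called higher, to 441 to 577 FPKM, against 250 to 330 FPKM in WT. The 6 endothelial genes, 4 called higher and 1 lower, summed to 376 to 391 FPKM in the libraries labelled Mrp4 KO, against 251 to 343 FPKM in WT, without overlap. The 6 mesothelial genes, 1 called lower, summed to 57.1 to 156 FPKM in the libraries labelled Mrp4 KO, against 156 to 244 FPKM in WT. Epididymis and testis genes summed to 0.09 to 0.28 FPKM in the libraries labelled Mrp4 KO, against 0.45 to 13.8 FPKM in WT. None of them had enough counts to be tested. WT replicate 2 held the highest sum, nearly all of it Crisp1 (13.47 FPKM). The 3 calls among the glycogen genes below held without that library. It was, however, the lowest WT library for Gys1 and Gbe1, so leaving it out widened their differences (log2 fold changes -0.81 and -1.17). That fit therefore says nothing about the part of such tissue in the calls. The part of these cell types in the results below was not tested. In whole tissue, fewer cells of a type and less RNA per cell cannot be told apart.

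Several genes of glycogen synthesis were lower in the libraries labelled Mrp4 KO. Gys1, Gbe1 and Ugp2 fell, while Gyg, Gys2, the 3 phosphorylase genes and Ppp1r3c did not pass. Thus 3 of 9 members were lower and 0 higher, where 8.05% of all tested genes were lower and 10.2% higher. Calls were made with the quasi-likelihood test of edgeR at a threshold of 0.05 after Benjamini-Hochberg adjustment over all 14257 tested genes, and the adjusted p-values below come from it. At an unadjusted p under 0.05, 4 members were lower and 0 higher, where 16.6% of all tested genes were lower and 18.7% higher. DESeq2 and limma-voom each gave 3 lower and 0 higher; DESeq2 called 10.7% of all tested genes lower and 12.5% higher, and limma-voom 7.72% lower and 10.5% higher. The median log2 fold change of the 9 members was -0.21, beside 0.00 for all tested genes.

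**Figure D1:**
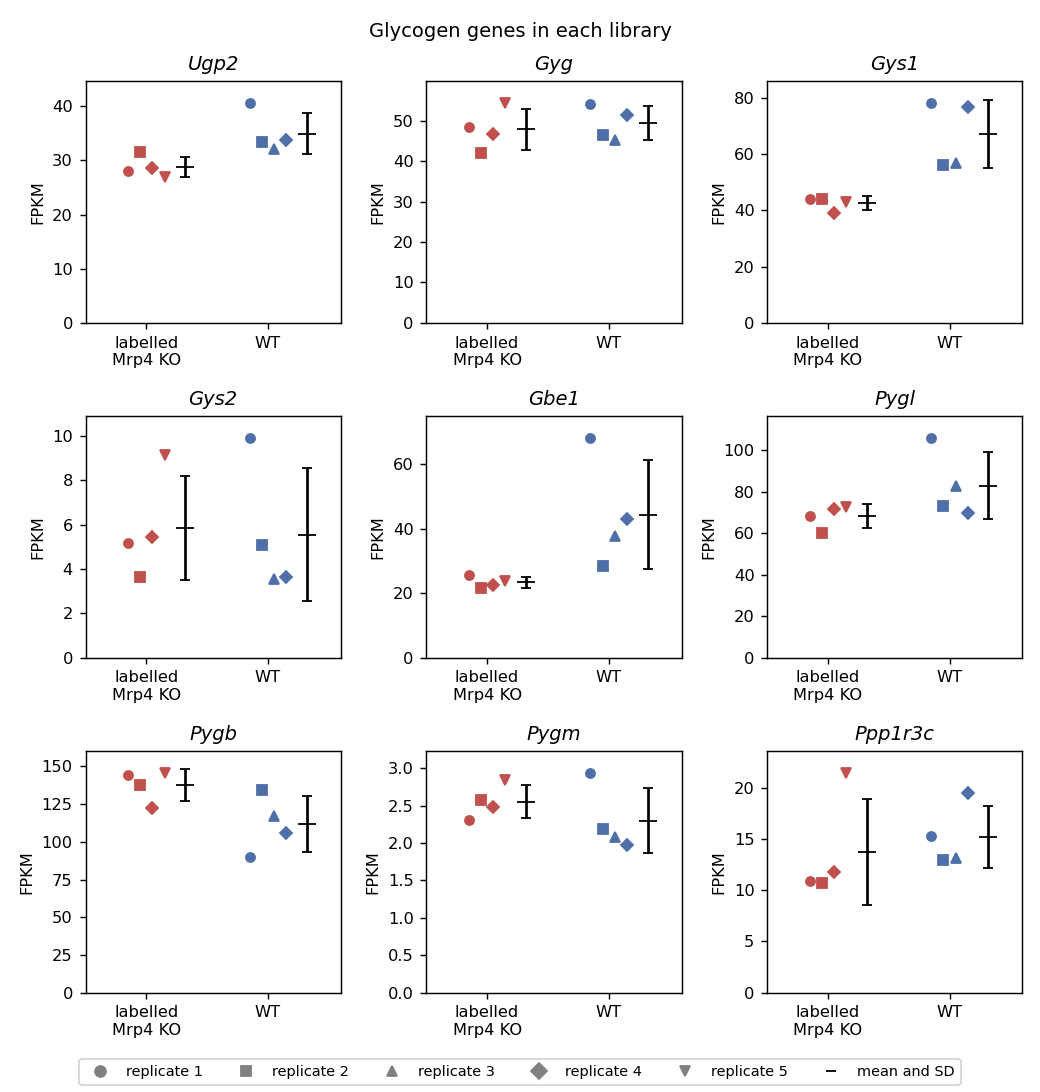
FPKM of the 9 glycogen genes in each library, those labelled Mrp4 KO left of WT, with the mean and SD of each group (n = 4). The groups lie apart for Ugp2, Gys1 and Gbe1 and overlap for the other 6 genes; WT replicate 1 is the highest WT library for 7 of the 9 genes.

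Gys1 (gene 14936) encodes the glycogen synthase of muscle and most other tissues. It was at 44.22, 44.19, 38.95 and 43.08 FPKM in replicates 1, 2, 4 and 5 labelled Mrp4 KO, against 78.23, 56.33, 56.96 and 76.87 FPKM in WT replicates 1 to 4. All 4 libraries labelled Mrp4 KO lay below all 4 WT libraries, among which replicates 1 and 4 stood well above the other two. It averaged 42.6 ± 2.5 FPKM in the libraries labelled Mrp4 KO and 67.1 ± 12.1 FPKM in WT (SD, n = 4 each). The log2 fold change was -0.72 ± 0.13 (SE), which is a fold of 0.606 with a 95% interval of 0.497 to 0.738 (edgeR adjusted p = 0.00732). Of the 3 calls among the members, this one alone held in all 8 fits without 1 library (-0.81 to -0.64).

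Gbe1 (gene 74185), the branching enzyme, had the largest fold change of the 9. Its levels were 25.79, 21.79, 22.47 and 23.79 FPKM in replicates 1, 2, 4 and 5 labelled Mrp4 KO, against 68.25, 28.51, 37.94 and 43.15 FPKM in WT replicates 1 to 4. The groups did not overlap, but the WT libraries were widely spread, with replicate 1 far above the rest and replicate 2 near the other group. The means were 23.5 ± 1.76 FPKM in the libraries labelled Mrp4 KO and 44.5 ± 17.0 FPKM in WT. The log2 fold change was -0.99 ± 0.23 (SE; fold 0.503, 95% interval 0.351 to 0.72; adjusted p = 0.0217). Without WT replicate 1 it was -0.71 and still passed. It missed the threshold without WT replicate 4 (adjusted p = 0.0532) and without replicate 2, 4 or 5 labelled Mrp4 KO (adjusted p = 0.0522, 0.0609 and 0.0553).

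Ugp2 (gene 216558), which makes the UDP-glucose that synthase uses, showed a smaller difference. It was at 28.11, 31.47, 28.56 and 26.94 FPKM in replicates 1, 2, 4 and 5 labelled Mrp4 KO and at 40.58, 33.33, 32.16 and 33.71 FPKM in WT replicates 1 to 4. The groups were close to touching, since replicate 2 labelled Mrp4 KO came near WT replicate 3. The log2 fold change was -0.35 ± 0.09 (SE; fold 0.786, 95% interval 0.687 to 0.9; adjusted p = 0.0267). The call was lost without replicate 1, 4 or 5 labelled Mrp4 KO (adjusted p = 0.065, 0.0658 and 0.066) and without WT replicate 4 (0.058), and with libraries scaled by size alone (-0.28, adjusted p = 0.0501) or with limma on log2(FPKM + 1) or log2(FPKM + 0.1) (adjusted p = 0.0529 and 0.0522), so in 3 of 8 other settings.

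The FPKM ranges of the groups did not overlap, with the libraries labelled Mrp4 KO lower, for these 3 of 9 members, as for 7.08% of all tested genes; no member lay wholly higher, as 16.4% of tested genes did. RefSeq places 250 bases before a start of each of the 3 genes, in the GRCm38.p6 build, at chr7:45434589-45434838 on the plus strand for Gys1, chr16:70313699-70313948 on the plus strand for Gbe1 and chr11:21371268-21371517 on the minus strand for the farther upstream of the 2 starts of Ugp2. These windows are shown because their genes were lower together. Capitals mark the motifs searched on both strands: CACGTG (E-box), TGACGTCA (cyclic AMP response element), CCAAT and GGGCGG (GC box), of which none overlapped another here.
Gys1: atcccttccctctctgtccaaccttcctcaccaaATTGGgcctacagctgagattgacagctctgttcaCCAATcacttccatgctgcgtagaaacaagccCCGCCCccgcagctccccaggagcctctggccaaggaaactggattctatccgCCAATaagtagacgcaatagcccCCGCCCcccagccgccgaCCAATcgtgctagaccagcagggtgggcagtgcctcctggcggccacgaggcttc
Gbe1: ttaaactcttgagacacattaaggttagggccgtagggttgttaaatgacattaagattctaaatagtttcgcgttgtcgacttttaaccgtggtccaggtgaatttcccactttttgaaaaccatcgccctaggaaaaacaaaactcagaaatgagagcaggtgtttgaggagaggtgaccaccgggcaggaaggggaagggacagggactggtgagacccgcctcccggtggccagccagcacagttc
Ugp2: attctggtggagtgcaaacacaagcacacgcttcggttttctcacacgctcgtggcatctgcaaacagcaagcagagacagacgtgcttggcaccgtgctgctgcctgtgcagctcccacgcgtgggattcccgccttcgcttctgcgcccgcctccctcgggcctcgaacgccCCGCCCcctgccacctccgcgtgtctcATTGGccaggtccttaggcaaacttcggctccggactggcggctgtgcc
In the windows shown, Gys1 held 4 CCAAT and 2 GGGCGG matches, Ugp2 held 1 of each, and Gbe1 held 0 of the 4 motifs. The window of the other Ugp2 start, not shown, held 2 matches, both GGGCGG. Over 32851 RefSeq windows of the same length, 33.8% held CCAAT, 32.7% held GGGCGG, 6.02% held CACGTG and 1.55% held TGACGTCA. Of the 8 members with a window in the table, Ppp1r3c alone held CACGTG, 104 bases before its start, and none held TGACGTCA. With a match at either start of Ugp2 counted, CCAAT was found before 3 of the 8 members (Gys1, Ugp2 and Ppp1r3c). GGGCGG was found before 4 (Gyg, Gys1, Ugp2 and Pygl). Such matches describe letters and not binding.

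Gys2 (gene 232493), the synthase form known from liver and also expressed in fat, varied as much within the groups as between them. It was at 5.19, 3.64, 5.42 and 9.14 FPKM in replicates 1, 2, 4 and 5 labelled Mrp4 KO, against 9.9, 5.09, 3.53 and 3.62 FPKM in WT replicates 1 to 4. The highest library of each group was about as high as that of the other, and the ranges overlapped almost wholly. The log2 fold change was 0.02 ± 0.38 (SE; adjusted p = 0.98), and the fold had a 95% interval of 0.564 to 1.82, within which no difference was detectable. It ran from -0.29 without replicate 5 labelled Mrp4 KO to 0.46 without WT replicate 1. The hepatocyte list summed to 713, 1350, 1270 and 1020 FPKM in replicates 1, 2, 4 and 5 labelled Mrp4 KO, against 93.3, 42.6, 55.8 and 37.9 FPKM in WT replicates 1 to 4. WT replicate 1 was the highest WT library for both the list and Gys2, while replicate 5 labelled Mrp4 KO was highest in its group for Gys2 and replicate 2 for the list. The part of liver transcripts in the Gys2 values was not tested.

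Glycogenin (Gyg, gene 27357), on whose bound sugar chain a new glycogen particle starts, was at 41.89 to 54.36 FPKM in the libraries labelled Mrp4 KO and 45.22 to 54.23 FPKM in WT. The ranges overlapped nearly in full, and the 95% interval of the fold was 0.795 to 1.08 (log2 fold change -0.11 ± 0.10 (SE), adjusted p = 0.471).

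Among the phosphorylase genes 0 of 3 passed in edgeR, DESeq2 or limma-voom; at an unadjusted p under 0.05 in edgeR 1 was lower and 0 higher. Pygl (gene 110095), the liver form, was at 68.46, 60.03, 71.58 and 72.77 FPKM in replicates 1, 2, 4 and 5 labelled Mrp4 KO, against 106.02, 73.08, 82.96 and 69.93 FPKM in WT replicates 1 to 4. WT replicate 1 stood above the rest, and WT replicate 4 lay among the libraries labelled Mrp4 KO. The log2 fold change was -0.35 ± 0.13 (SE; 95% interval -0.65 to -0.05; adjusted p = 0.0942) and was -0.20 without WT replicate 1. Pygb (gene 110078), the brain form, was at 144.3, 137.91, 122.26 and 145.74 FPKM in replicates 1, 2, 4 and 5 labelled Mrp4 KO and at 90.09, 134.43, 117.07 and 105.78 FPKM in WT replicates 1 to 4. Here WT replicate 1 was the lowest library, and WT replicate 2 lay inside the range of the libraries labelled Mrp4 KO. Its log2 fold change was 0.24 ± 0.12 (SE; 95% interval -0.03 to 0.50; adjusted p = 0.182). Pygm (gene 19309), the muscle form, was at 2.31 to 2.84 FPKM in the libraries labelled Mrp4 KO and 1.98 to 2.94 FPKM in WT (adjusted p = 0.715). The 10 skeletal muscle markers summed to 35.9 to 111 FPKM in the libraries labelled Mrp4 KO, against 12.3 to 74.9 FPKM in WT, and only Acta1 and Actn3 had enough counts to be tested. The skeletal actin gene Acta1 was at 32.73 to 108.41 FPKM in the libraries labelled Mrp4 KO and 7.99 to 72.59 FPKM in WT (adjusted p = 0.385), and Actn3 was lower (0.78 ± 0.419 FPKM, against 2.03 ± 1.05 FPKM in WT; adjusted p = 0.0482). The fast myosin gene Myh4 was at or below 0.01 FPKM in each library. The part of muscle RNA in the Pygm values was not tested. The brain marker Gfap was likewise at or below 0.05 FPKM.

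Ppp1r3c (gene 53412), the PTG scaffold, was at 10.91, 10.66, 11.82 and 21.46 FPKM in replicates 1, 2, 4 and 5 labelled Mrp4 KO, against 15.28, 12.91, 13.19 and 19.44 FPKM in WT replicates 1 to 4. Replicates 1, 2 and 4 labelled Mrp4 KO lay below all WT libraries, and replicate 5 lay above all of them. With all 8 libraries the log2 fold change was -0.21 ± 0.25 (SE; adjusted p = 0.568), and without replicate 5 labelled Mrp4 KO it was -0.52, which also did not pass (adjusted p = 0.0624).

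**Figure D2:**
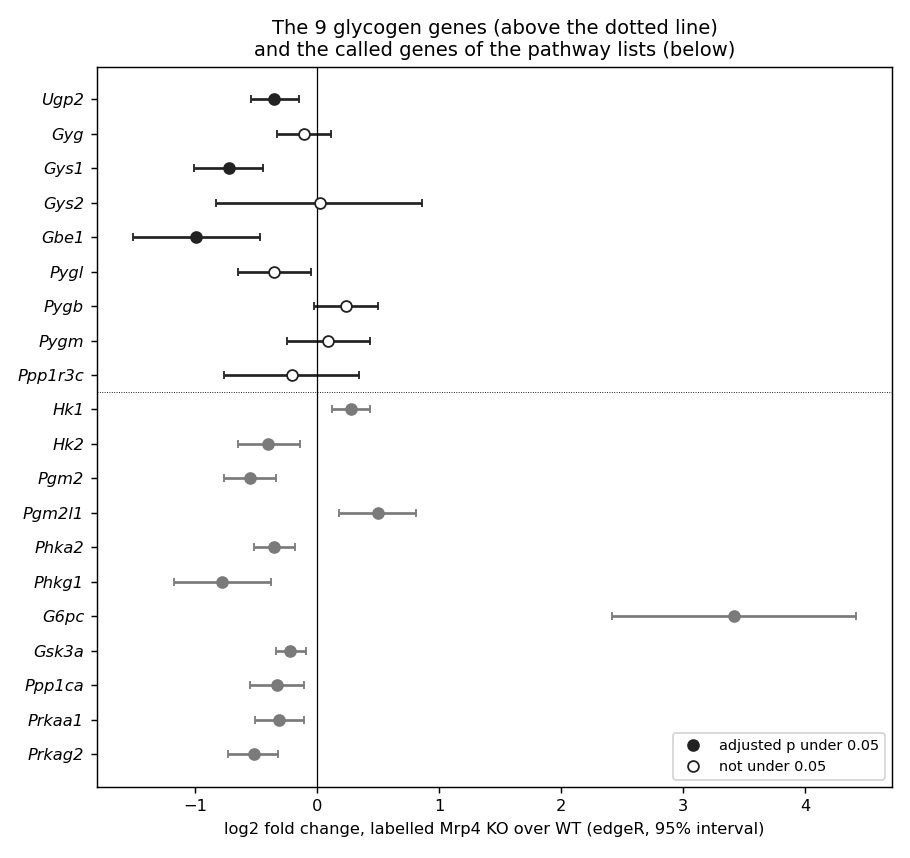
Log2 fold change of the libraries labelled Mrp4 KO over WT with its 95% interval from edgeR, for the 9 glycogen genes and, in grey, for the 11 reported genes of the pathway lists that passed. Filled points passed at an adjusted p under 0.05; among the 9 genes these are Ugp2, Gys1 and Gbe1, all below 0.

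Per length of transcript, the order of the 9 genes was led by Pygb and closed by Pygm in both groups. In the libraries labelled Mrp4 KO the mean FPKM ran Pygb (138), Pygl (68.2), Gyg (47.9), Gys1 (42.6), Ugp2 (28.8), Gbe1 (23.5), Ppp1r3c (13.7), Gys2 (5.85) and Pygm (2.55), and of neighbours in this order only the ranges of Gyg and Gys1 overlapped. In WT it ran Pygb (112), Pygl (83.0), Gys1 (67.1), Gyg (49.3), Gbe1 (44.5), Ugp2 (34.9), Ppp1r3c (15.2), Gys2 (5.54) and Pygm (2.3). There the neighbours from Pygb to Gys1 and from Gyg to Ugp2 overlapped. Gys1 thus stood above Gyg in WT and below it, within the spread, in the libraries labelled Mrp4 KO.

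The isoform shares and the ratio of synthase to phosphorylase transcripts are made from several members, so they are given without a test. Gys2 made up 10.5, 7.61, 12.2 and 17.5% of the summed Gys1 and Gys2 FPKM in replicates 1, 2, 4 and 5 labelled Mrp4 KO, against 11.2, 8.29, 5.84 and 4.5% in WT replicates 1 to 4; the ranges overlapped. Gys1 was therefore the main synthase transcript in every library. Pygb made up 67.1, 68.8, 62.3 and 65.8% of the phosphorylase FPKM in the libraries labelled Mrp4 KO and 45.3, 64.1, 57.9 and 59.5% in WT. Pygl gave most of the rest, with 32.8 ± 2.74% in the libraries labelled Mrp4 KO and 42.1 ± 7.87% in WT (SD, n = 4 each), and it exceeded Pygb only in WT replicate 1. The log2 ratio of summed synthase to summed phosphorylase FPKM was -2.12, -2.07, -2.15 and -2.08 in replicates 1, 2, 4 and 5 labelled Mrp4 KO, against -1.18, -1.77, -1.74 and -1.14 in WT replicates 1 to 4. These ranges did not overlap, and the means differed by -0.65. Because Gys1 made up most of the synthase sum in every library, this ratio is not separate from its lower level above. Summed synthase was 48.5 ± 3.27 FPKM in the libraries labelled Mrp4 KO and 72.6 ± 13.8 FPKM in WT, without overlap. Summed phosphorylase was 208 ± 11.8 FPKM in the libraries labelled Mrp4 KO and 197 ± 13.7 FPKM in WT, with overlap.

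**Figure D3:**
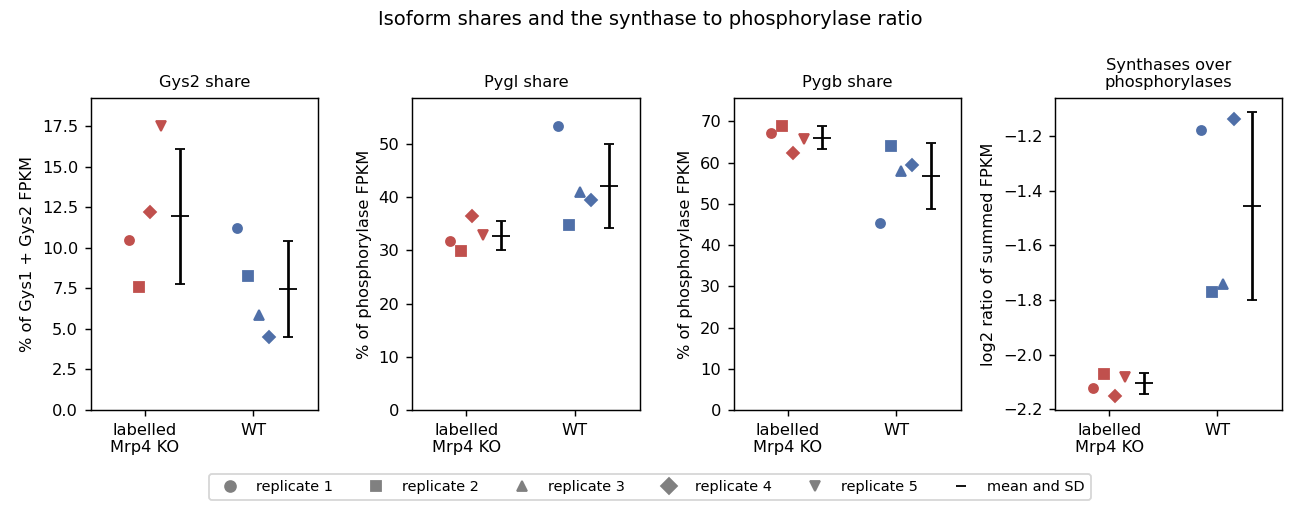
Share of Gys2 in the summed synthase FPKM, shares of Pygl and Pygb in the summed phosphorylase FPKM, and log2 ratio of summed synthase to summed phosphorylase FPKM, per library with mean and SD (n = 4). The 3 shares overlap between the groups; the 4 ratios of the libraries labelled Mrp4 KO lie between -2.15 and -2.07, below the WT ratios of -1.77 to -1.14, on an axis that does not start at 0.

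Within the groups, single libraries set much of the spread. WT replicate 1 was the highest WT library for 7 of the 9 genes (Ugp2, Gyg, Gys1, Gys2, Gbe1, Pygl and Pygm) and the lowest for Pygb. Among the libraries labelled Mrp4 KO, replicate 5 was highest for 6 genes and replicate 2 lowest for 5. After the group means of log2(FPKM + 1) were subtracted, the correlation over the 8 libraries was highest for Gys2 with Pygm (r = 0.85), with Pygl (0.81) and with Gyg (0.80), and lowest for Gbe1 with Pygb (-0.83); Gys1 with Gbe1 gave 0.79. Among 12501 other tested genes that averaged 1 FPKM or more, those most like Gbe1 in this measure were Pdhb, a subunit of pyruvate dehydrogenase (r = 0.991), Slc25a1, the mitochondrial citrate carrier (0.99), and Ptges2 (0.988). Those most like Gys1 were Ccdc122 (0.989), Ppa2 (0.984) and Psmb2 (0.981). For Gys2 they were B3galtl (0.97), Kpna6 (0.962) and the insulin-responsive glucose transporter gene Slc2a4 (0.952). The points share libraries and depth, and so many candidates over 8 points give high values, so these are descriptions only.

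**Figure D4:**
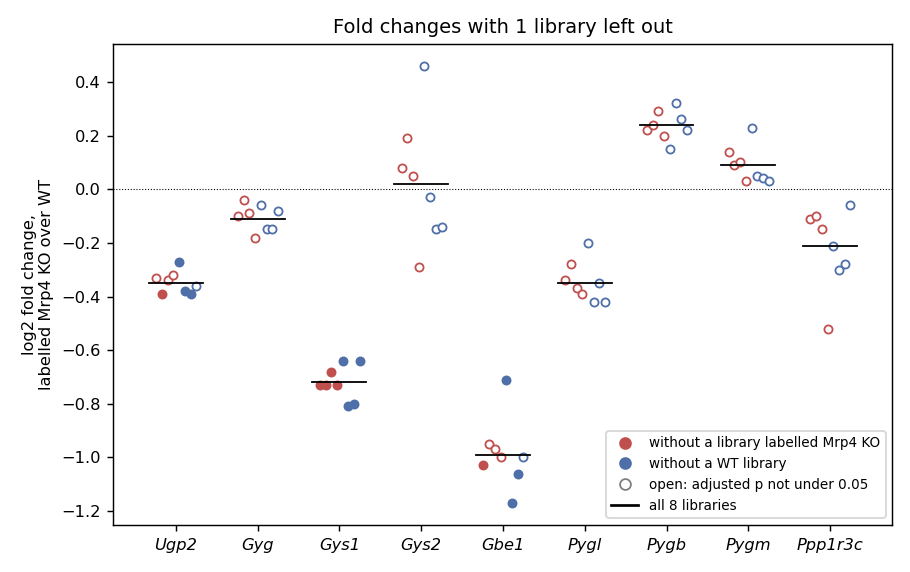
Log2 fold change of the libraries labelled Mrp4 KO over WT for the 9 glycogen genes in the 8 fits that each leave out 1 library; the black line is the value with all 8. Gys1 passes in every fit, Gbe1 and Ugp2 in 4 of 8 each, and Gys2 lies on either side of 0, from -0.29 to 0.46.

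Genes around glycogen in 5 further lists were lower in some places and higher in others. Of 46 genes 44 were tested; 8 were lower, 3 higher and 33 did not pass, which is 25.0% called where 18.3% of all tested genes were. The median log2 fold change was -0.01. Calls for Pgm2, G6pc and Prkag2 held in all 8 fits without 1 library and in all 8 other scalings, filters, tools and units; the remaining 8 calls were each lost in at least 1 fit without a library.

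In glucose entry and hexose phosphates, 2 of 9 genes were lower and 2 higher (44.4% called, beside 18.3% of all tested genes). The gene listed as Pgm2 (gene 72157, named Pgm1 in the RefSeq table) encodes the phosphoglucomutase that links hexose phosphates to glycogen. It was at 87.63, 82.78, 84.3 and 86.34 FPKM in replicates 1, 2, 4 and 5 labelled Mrp4 KO, against 136.34, 102.12, 115.76 and 121.97 FPKM in WT replicates 1 to 4, with no overlap (log2 fold change -0.55 ± 0.09 (SE), adjusted p = 0.0065). The hexokinase genes moved in opposite directions: Hk2, the form of insulin-sensitive tissues, was lower (-0.40, adjusted p = 0.0417, lost in 7 of 8 fits without 1 library and in 4 other settings) and Hk1, the widely expressed form, higher (0.28, adjusted p = 0.0278, lost in 5). Pgm2l1, which makes glucose bisphosphate, was higher at a low level (2.78 ± 0.26 FPKM in the libraries labelled Mrp4 KO and 1.88 ± 0.428 FPKM in WT; 0.50, adjusted p = 0.0378, lost in 7). Slc2a4, the transporter that insulin moves to the cell surface, did not pass (-0.32, adjusted p = 0.0826).

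Among partners of breakdown, 2 of 9 genes were lower and 1 higher (33.3% called, beside 18.3% of all tested genes). The phosphorylase kinase genes Phkg1, a catalytic subunit, and Phka2, a regulatory subunit, fell by 0.78 and 0.35 on the log2 scale (adjusted p = 0.019 and 0.0173). Phkg1 lost its call without replicate 5 labelled Mrp4 KO or WT replicate 4, and Phka2 without replicate 4 labelled Mrp4 KO. The subunit genes Phkb and Phkg2 did not pass (-0.06 and 0.05, adjusted p = 0.605 and 0.748). G6pc, the glucose-releasing phosphatase of liver, kidney and intestine, was at 3.79, 5.15, 6.14 and 4.07 FPKM in replicates 1, 2, 4 and 5 labelled Mrp4 KO, against 0.97, 0.28, 0.34 and 0.1 FPKM in WT replicates 1 to 4. The groups were far apart (3.42 ± 0.44 (SE) on the log2 scale, adjusted p = 0.00181), in the same libraries in which all 10 hepatocyte genes were higher. The widely expressed G6pc3 did not pass (0.05, adjusted p = 0.663).

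In synthase control and glycogen scaffolds, 2 of 12 tested genes were lower and 0 higher in edgeR. That is 16.7% called, near the 18.3% of all tested genes. At an unadjusted p under 0.05 also 2 were lower and 0 higher, beside 16.6% and 18.7% of all tested genes. DESeq2 and limma-voom called 0 higher, where they called 12.5% and 10.5% of all tested genes higher. Gsk3a, a kinase that inactivates glycogen synthase, was at 43.57 to 43.86 FPKM in the libraries labelled Mrp4 KO, against 46.66 to 50.22 FPKM in WT (-0.22, adjusted p = 0.0278, lost in 7 of 8 fits without 1 library and in 3 other settings). Ppp1ca, a catalytic subunit of protein phosphatase 1, had a log2 fold change of -0.33 (adjusted p = 0.0428, lost in 7 and in 4 other settings). The scaffold genes Ppp1r3b and Stbd1 did not pass (0.45 and 0.23). Ppp1r3a, the muscle scaffold, and Ppp1r3g had too few counts to be tested.

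AMP-activated kinase is an energy sensor whose regulatory and scaffold parts bind nucleotides and glycogen. Of its 7 subunit genes, 2 were lower and 0 higher (28.6% called, beside 18.3% of all tested genes). At an unadjusted p under 0.05, 2 were lower and 1 higher, beside 16.6% and 18.7% of all tested genes. DESeq2 and limma-voom each called 2 lower and 1 higher. Of all tested genes, DESeq2 called 10.7% lower and 12.5% higher, and limma-voom 7.72% and 10.5%. Prkag2, a nucleotide-binding subunit, was at 21.6 ± 1.45 FPKM in the libraries labelled Mrp4 KO and 29.5 ± 3.17 FPKM in WT, with no overlap (-0.52 ± 0.09 (SE), adjusted p = 0.00702). Prkaa1, a catalytic subunit, was lower by less (-0.31, adjusted p = 0.0389, lost in 5 of 8 fits without 1 library and in 4 other settings). Prkag3, known from muscle, did not pass in edgeR (1.04 ± 0.40 (SE), adjusted p = 0.0967).

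In UDP-glucose and galactose handling, 0 of the 7 genes reported passed in edgeR, DESeq2 or limma-voom, and 0 had an unadjusted p under 0.05 in edgeR. Among all tested genes, edgeR called 18.3%, and at that unadjusted p 16.6% were lower and 18.7% higher. DESeq2 called 10.7% of them lower and 12.5% higher, and limma-voom 7.72% and 10.5%. Ugdh and Ugcg, which draw on UDP-glucose for glucuronate and for glucosylceramide, had log2 fold changes of -0.13 ± 0.09 and 0.24 ± 0.11 (SE; adjusted p = 0.36 and 0.163). Galk1 and Galt, which take up galactose into this pool, were at -0.26 ± 0.21 and -0.09 ± 0.08 (adjusted p = 0.397 and 0.463), and the groups overlapped for all 4 of these genes.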

How the data were processed

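Per the labels' protocols, poly-T selected RNA was read as pairs of 100 bases on the BGISEQ-500. The submitters' processing notes name mm9 and Bowtie2; no source used here gives the quantifier. Per the file headers, the authors deposited FPKM and expected counts per gene and library. Of the listed genes, 92% to 92.6% had a whole count, as the 9 glycogen genes did throughout. Unlisted genes were set to 0.

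Counts were rounded for edgeR 4.0.16 (R 4.3.3): filterByExpr removed 4434 genes, TMM factors scaled the libraries, and glmQLFit (robust) and glmQLFTest fitted genotype alone, with Benjamini-Hochberg adjustment. SE is the absolute log2 fold change over the square root of F. The fit was tested on simulated data. Alternatives were DESeq2 1.42.0, limma 3.58.1 (voom, or log2 of FPKM plus 1 or 0.1), other scalings and thresholds, no filter, a replicate block and each library left out. Counting is not stated to use strand, and related synthase and phosphorylase genes could share reads. The counts of Phkg1 were not whole in any library (154.27 to 395.99), and the part of shared reads in its call was not tested.

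The 9 genes, the lists and the rule for named genes were chosen with earlier results of these data known. The rule names Abcc4, the 9 genes, in each pathway list those that passed and up to 4 more with the lowest p (mean of 1 FPKM or more in either group), and 3 genes most like each of the 9; not all are reported. Ppp1r3a and Ppp1r3g are named as untested, and 2 list genes are not reported here. Promoter windows are from RefSeq (GRCm38.p6), found for 8 of the 9 genes.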

Additional observations from a re-analysis of the deposited data

Results flagged for a closer look

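In groups of 4 libraries, a value was marked where its gap to the nearest other exceeded Dixon's 95% critical value, which chance does in about 1 of 20 groups; 52 groups were examined and 2 were marked. Ppp1r3c was at 21.46 FPKM in replicate 5 labelled Mrp4 KO, where the other 3 libraries of that group lay between 10.7 and 11.8 FPKM. The share of Pygm in the phosphorylase FPKM was 1.07% in replicate 1 labelled Mrp4 KO, where the other 3 lay between 1.26% and 1.29%.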

How the results depend on the processing

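The number of genes called over all 14257 was 2606; it was 551 and 4178 at adjusted p thresholds of 0.01 and 0.1, and 1172 (without WT replicate 4) to 3683 (without WT replicate 2) with 1 library left out. The share of calls that were higher was 55.9%, and 74.1% with library size alone, which shifted the median of all genes by 0.07 on the log2 scale, and 73.1% with limma on log2(FPKM + 1). Calls among the 9 glycogen genes numbered 3; they were 1 at a threshold of 0.01 and ran from 1 to 3 without 1 library, with Gys1 alone called without replicate 4 or 5 labelled Mrp4 KO or WT replicate 4. Calls among the other pathway genes numbered 11; they were 3 at 0.01, 7 with limma on log2(FPKM + 1) or log2(FPKM + 0.1), and ran from 4 (without replicate 4 labelled Mrp4 KO or WT replicate 4) to 12 (without WT replicate 2) without 1 library. Adjusted p over the 8 other settings ran from 7.21e-06 to 0.0108 for Gys1, 0.000357 to 0.0386 for Gbe1 and 0.00492 to 0.0529 for Ugp2, all with a lower level in the libraries labelled Mrp4 KO. Gys2, which never passed, changed sign without 4 of the libraries (-0.29 to 0.46). The log2 synthase to phosphorylase ratio differed by -0.75 to -0.54 without 1 library and by -0.71 from expected counts. Same-numbered libraries did not deviate together (r = -0.128 to 0.0107 over 3 pairs, 0 of 3 best with its own number). No pairing by number was thus detected, though 3 pairs cannot exclude a weak one. With the replicate number as a block, 141 genes were called over all. Replicate 5 labelled Mrp4 KO and WT replicate 3 have no partner of the same number. They thus add nothing to the genotype estimate of that fit, which rests on the 3 same-numbered pairs with fewer degrees of freedom. Of the 9 glycogen genes, 0 were then called (6 at an unadjusted p under 0.05). Of the other pathway genes, 0 were called (15 of 44 at that p, which 25.3% of all tested genes passed). The log2 fold changes of Gys2 and Pygm in that fit were -0.37 and -0.01. Beyond the libraries that drop out of it, the cause of the changes in that fit was not tested.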
